A study of Mus musculus with 14 samples.

Results

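Hippocampi of mice that carry a Cre transgene were compared with hippocampi of mice that do not, in the same set of 14 poly(A) RNA-Seq libraries, 1 per mouse. The conditional class held the 8 mice that inherited a Cre transgene together with a floxed Gper1 allele, and the germline class held the other 6. Every sample of the series entered the comparison, and class followed the genotype on the label. All mice were female, 10 weeks old and on a C57BL/6J background. In the germline class, 3 mice were wild type (WT) and 3 were Δ3102, a CRISPR/Cas9 line that lacks GPR30 in every cell. In the conditional class, 4 mice were AG-KO (GPR30 fl/fl;GFAP-Cre, deletion in astrocytes) and 4 were NG-KO (GPR30 fl/fl;NSE-Cre, deletion in neurons). The germline class was therefore not simply a control class, because 3 of its 6 mice were whole-body knockouts. Mice with Cre alone or with the floxed allele alone were not analysed here. Between the classes, the Cre transgene, the floxed allele, the cell-restricted loss of GPR30, the breeding of the lines and any difference in handling cannot be told apart.

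Cre recombinase cuts DNA at a pair of loxP sites and removes the segment between them, and a tissue-restricted promoter limits the cells in which this happens. The GFAP promoter is active in astrocytes and in neural stem cells, and the promoter of neuron-specific enolase (NSE, the product of Eno2) is active in neurons. A transgene also brings a piece of foreign DNA and the flanking chromosome of its founder, so lines made in different laboratories commonly differ from each other at loci other than the gene of interest. GPR30, the product of Gper1, is a membrane receptor that responds to estrogen.

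The libraries held 44527024 to 62669865 counts. Neuronal and astrocytic markers were abundant in all of them: Snap25, a synaptic vesicle fusion protein, ranged from 232 to 273 FPKM (fragments mapped to a gene, scaled to its transcript length and to the depth of the library), and Slc1a2, the main astrocytic glutamate transporter, from 74.4 to 137 FPKM. Transcripts of liver, kidney, skeletal muscle, testis and blood were present at levels that varied widely between libraries of both classes, and their values are given beside the genes they touch. Where RNA of a cell type is lower in whole tissue, fewer cells and less RNA per cell cannot be told apart.

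Differences between the classes were taken as the mean of AG-KO and NG-KO minus the mean of WT and Δ3102, so that each genotype had the same weight, and were tested with edgeR's quasi-likelihood test over 18059 genes. At an adjusted p under 0.05 (Benjamini-Hochberg over all tested genes), 13 genes differed, which is 0.072% of those tested. Of these, 6 were higher and 7 were lower in the Cre-carrying mice. Unadjusted p was under 0.05 for 2164 genes, of which 971 (5.38% of all tested) were higher and 1193 (6.61%) were lower. The median log2 difference over all tested genes was -0.0077. In 28 genes (0.155%) all 8 conditional libraries lay above all 6 germline libraries, and in 57 genes (0.316%) all 8 lay below. Of the 13 called genes, 5 showed such a separation: Adgrl1, Sel1l, Serpinf2, Aqp1 and Tcea3. The other 8 did not, because a single genotype set the difference or because the values overlapped. DESeq2, with the same design, called 318 genes, and these included all 13.

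The same fit gave the differences inside each class. Δ3102 and WT mice differed in 2 genes (0.0111%), and AG-KO and NG-KO mice differed in 20 genes (0.111%). AG-KO mice differed from the germline mean in 5 genes (0.0277%) and NG-KO mice in 15 genes (0.0831%). Without AG-KO replicate 2, AG-KO mice differed from the germline mean in 201 genes and from NG-KO mice in 297. Without WT replicate 1, AG-KO replicate 2 or NG-KO replicate 1, the classes differed in 27, 22 and 23 genes. The comparisons of AG-KO and of NG-KO mice share their 6 germline mice. Of the 13 genes called between the classes, 7 were also called when the Cre lines were set against each other, and 6 were not: Adgrl1, Sel1l, Myh10, Serpinf2, Aqp1 and Tcea3. In 12 of the 13, both lines lay on the same side of the germline mean, and the exception was Gapdh-ps15.

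Adgrl1 encodes latrophilin 1, an adhesion G protein-coupled receptor of presynaptic terminals that binds teneurins and the spider toxin α-latrotoxin. Its level was 24.7, 26.4 and 25.2 FPKM in WT mice and 42.2, 29.4 and 25.7 FPKM in Δ3102 mice. In AG-KO mice it was 50.7, 50.6, 56.5 and 54.6 FPKM, and in NG-KO mice 53.5, 50.3, 48.9 and 51.6 FPKM. All 8 Cre-carrying mice were above all 6 germline mice, and Δ3102 replicate 1 stood between the classes. The mean was 28.9 ± 6.7 FPKM (SD, n = 6) in the germline class and 52.1 ± 2.6 FPKM (SD, n = 8) in the conditional class. The difference was 0.88 ± 0.096 on the log2 scale (SE, edgeR adjusted p = 0.00158). Against WT mice alone it was 1.06 (edgeR adjusted p = 0.00395), and against Δ3102 mice alone 0.70, which did not pass (edgeR adjusted p = 0.0952). Against the germline mean each line passed alone, with 0.92 in AG-KO (edgeR adjusted p = 0.00618) and 0.84 in NG-KO (edgeR adjusted p = 0.00851). The lines did not differ from each other beyond their spread (0.08 ± 0.12, SE, edgeR adjusted p = 0.826). Adgrl1 (ENSMUSG00000013033) lies on the plus strand at chr8:83900105-83941954 (GRCm38), and the annotated minus-strand models inside it, Gm10644, Gm44450 and Gm44330, were at most 3.28 FPKM.

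Sel1l encodes the adaptor of the HRD1 ubiquitin ligase, which removes misfolded proteins from the endoplasmic reticulum. Its level was 9.92, 16.4 and 13.6 FPKM in WT mice and 16.6, 17.2 and 13.8 FPKM in Δ3102 mice. It was 23.8, 22.9, 21.6 and 21.1 FPKM in AG-KO mice and 21.3, 22.3, 23.6 and 21.4 FPKM in NG-KO mice. The lowest Cre-carrying mouse was above the highest germline mouse, and both lines covered nearly the same range. The difference was 0.63 ± 0.094 on the log2 scale (SE, edgeR adjusted p = 0.0206). Against WT mice alone it was 0.76 (edgeR adjusted p = 0.0481), and against Δ3102 mice alone 0.50, which did not pass (edgeR adjusted p = 0.383). Against the germline mean it was 0.65 in AG-KO and 0.62 in NG-KO mice, neither of which passed alone (edgeR adjusted p = 0.0853 and 0.0717). The call was lost, at adjusted p between 0.0552 and 0.0621, when WT replicate 3, Δ3102 replicate 1 or 3, AG-KO replicate 1 or NG-KO replicate 3 was left out, while the difference stayed between 0.58 and 0.65. Of 20 tested heat shock and endoplasmic reticulum stress genes, none was higher and 2 were lower between the classes at an unadjusted p under 0.05 (Calr, -0.13, and Pdia6, -0.20), with a median of -0.08. Over all tested genes the shares were 5.38% higher and 6.61% lower. In AG-KO mice 3 were higher and none was lower (median 0.06), against 7.31% and 8.47% of all tested genes. In NG-KO mice none was higher and 6 were lower (median -0.23), against 4.11% and 4.7% of all tested genes. A link between Sel1l and these genes was not tested.

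The promoter windows of Adgrl1 and Sel1l are shown because these 2 genes separated the classes in both Cre lines and rose, rather than fell, in Cre-carrying mice. Each sequence is the 250 bases before the RefSeq start site (GRCm38.p6), written 5′ to 3′ on the gene's strand, with matches in capitals. The motifs searched on both strands were the GC box GGGCGG, the CCAAT box CCAAT and the TATA box TATAAA, and no match overlapped another.
Adgrl1 promoter, plus strand, chr8:83899848-83900097: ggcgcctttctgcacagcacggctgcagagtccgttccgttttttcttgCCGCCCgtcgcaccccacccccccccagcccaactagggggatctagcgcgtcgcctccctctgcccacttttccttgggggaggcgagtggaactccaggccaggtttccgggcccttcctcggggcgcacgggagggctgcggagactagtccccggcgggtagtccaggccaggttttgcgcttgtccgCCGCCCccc
Sel1l promoter, minus strand, chr12:91849158-91849407: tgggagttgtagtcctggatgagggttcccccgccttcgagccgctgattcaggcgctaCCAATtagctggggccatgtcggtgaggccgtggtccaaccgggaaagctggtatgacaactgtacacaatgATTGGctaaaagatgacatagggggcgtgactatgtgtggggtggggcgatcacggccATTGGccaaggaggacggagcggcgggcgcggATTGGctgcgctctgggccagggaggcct

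The Adgrl1 window held 2 GC boxes, and 68.8% of its bases were G or C. The Sel1l window held 4 CCAAT boxes, 61.2% of its bases were G or C, and it had no GC box. Of all 32851 promoter windows of this length, 32.7% held a GC box, 33.8% a CCAAT box and 12.4% a TATA box. The 2 windows had no motif of the 3 in common.

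**Figure D1:**
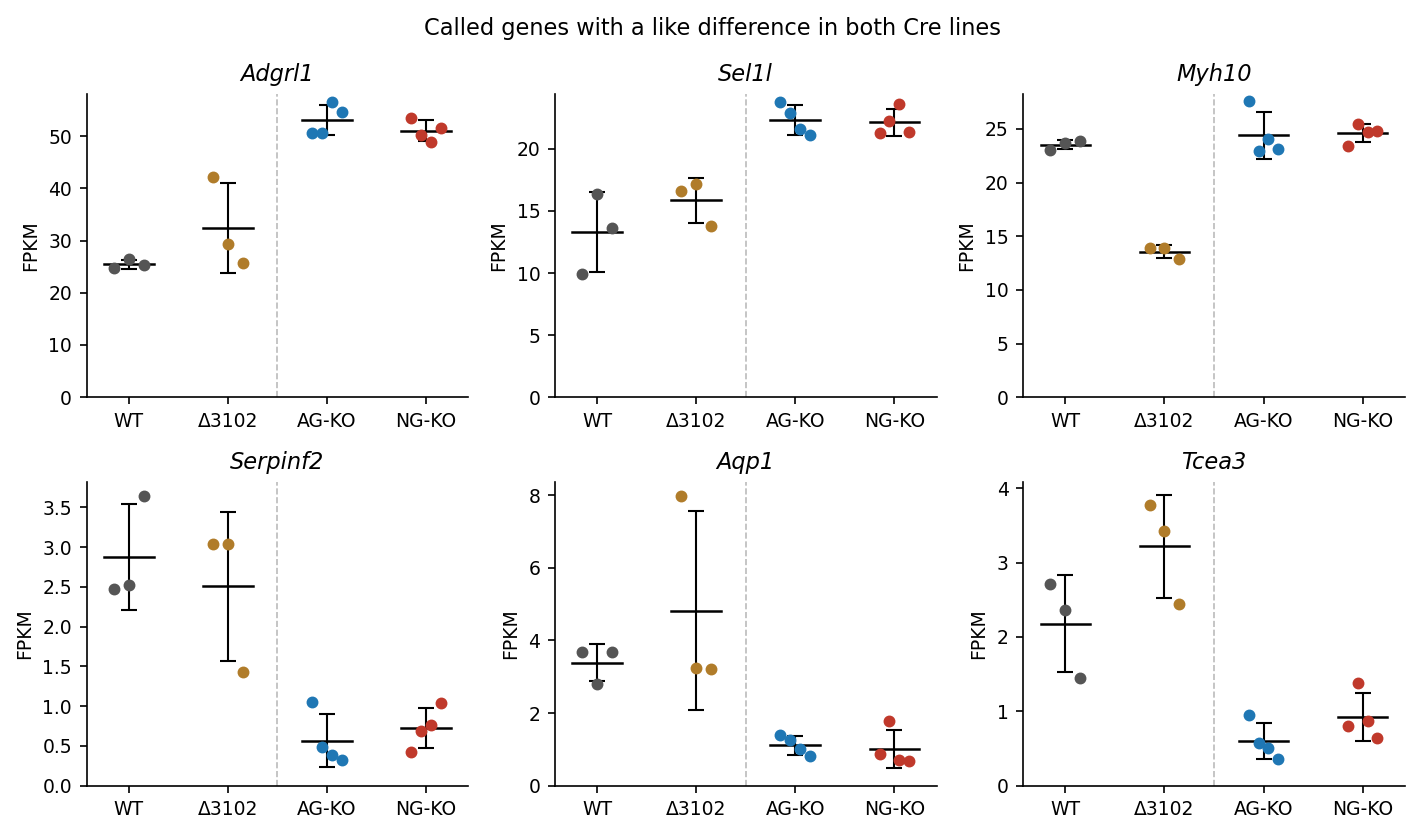
FPKM of the 6 called genes that were not called between the Cre lines; each point is a library, horizontal bars are genotype means and whiskers are SD, and the dashed line separates germline from Cre-carrying mice. Adgrl1 lies between 48.9 and 56.5 FPKM in Cre-carrying mice and between 24.7 and 42.2 FPKM in germline mice, whereas for Myh10 only the Δ3102 mice stand apart.

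Myh10, the heavy chain of nonmuscle myosin IIB, was called between the classes with overlapping values. Its level was 23.1, 23.7 and 23.9 FPKM in WT mice and 13.9, 13.9 and 12.9 FPKM in Δ3102 mice. It was 27.6, 22.9, 24 and 23.1 FPKM in AG-KO mice and 23.4, 25.5, 24.7 and 24.8 FPKM in NG-KO mice. The Cre-carrying mice lay on both sides of the narrow WT range, with AG-KO replicate 1 the highest, and the Δ3102 mice were below all other mice. The class difference of 0.47 ± 0.046 on the log2 scale (SE, edgeR adjusted p = 0.000486) became 0.08 ± 0.057 when the Cre-carrying mice were compared with WT mice alone (edgeR adjusted p = 0.625). Δ3102 mice fell by 0.79 against WT mice (edgeR adjusted p = 0.000729), and Myh10 was 1 of the 2 genes called in that comparison. The other was Pisd-ps1, a pseudogene at 17.1 to 24.5 FPKM in WT mice and 59.4 to 64.5 FPKM in Δ3102 mice. It was 17.9 to 30.0 FPKM in AG-KO mice and 52.4 to 60.1 FPKM in NG-KO mice, so that the class difference was -0.02.

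Serpinf2, Aqp1 and Tcea3 were lower in Cre-carrying mice, with like values in both lines. None passed in either line alone (edgeR adjusted p between 0.0615 and 0.153). Serpinf2 encodes α2-antiplasmin, a plasma inhibitor of fibrinolysis that is made by the liver and kidney. It was 2.47, 2.52 and 3.65 FPKM in WT mice, 3.04, 3.05 and 1.43 FPKM in Δ3102 mice, 1.05, 0.491, 0.390 and 0.327 FPKM in AG-KO mice and 0.423, 0.688, 0.764 and 1.04 FPKM in NG-KO mice. The class difference was -2.05 ± 0.29 on the log2 scale (SE, edgeR adjusted p = 0.0155). It was -2.15 against WT mice alone (edgeR adjusted p = 0.0481) and -1.95 against Δ3102 mice alone (edgeR adjusted p = 0.0952). The lowest germline value belonged to Δ3102 replicate 3, the germline library with the lowest level of hepatocyte transcripts.

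Aqp1 encodes a water channel of the choroid plexus, the kidney tubule and red cells. It was 3.68, 2.80 and 3.69 FPKM in WT mice, 7.99, 3.24 and 3.22 FPKM in Δ3102 mice, 1.38, 1.25, 1 and 0.811 FPKM in AG-KO mice and 0.884, 1.79, 0.710 and 0.684 FPKM in NG-KO mice. The difference was -1.90 ± 0.27 on the log2 scale (SE, edgeR adjusted p = 0.0155). It was -1.65 against WT mice alone (edgeR adjusted p = 0.147) and -2.16 against Δ3102 mice alone (edgeR adjusted p = 0.0223). Δ3102 replicate 1, the library with the highest Aqp1, also held 1405 FPKM of Ttr, the main choroid plexus transcript, against 14.4 to 114 FPKM in the other germline libraries. Other libraries did not follow this order. The choroid plexus genes listed below summed to 280 FPKM in AG-KO replicate 3, where Aqp1 was 1 FPKM. They summed to 40.6 FPKM in Δ3102 replicate 3, where Aqp1 was 3.22 FPKM. A link between Aqp1 and choroid plexus content was not tested.

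Tcea3, a transcription elongation factor, was 2.71, 2.37 and 1.45 FPKM in WT mice, 3.78, 3.42 and 2.45 FPKM in Δ3102 mice, 0.947, 0.579, 0.512 and 0.364 FPKM in AG-KO mice and 0.808, 1.38, 0.871 and 0.644 FPKM in NG-KO mice. The difference was -1.80 ± 0.26 on the log2 scale (SE, edgeR adjusted p = 0.0155). It was -1.52 against WT mice alone (edgeR adjusted p = 0.153) and -2.08 against Δ3102 mice alone (edgeR adjusted p = 0.0205). The closest values of the classes were 1.45 FPKM in WT replicate 3 and 1.38 FPKM in NG-KO replicate 2. Without NG-KO replicate 3, the adjusted p of Serpinf2, Aqp1 and Tcea3 was 0.0532 each. The adjusted p of Serpinf2 was also above 0.05 without Δ3102 replicate 1 or 2 (0.0583 and 0.0537), and that of Tcea3 without WT replicate 2 or Δ3102 replicate 1 or 2 (0.0506, 0.0583 and 0.0534).

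Transcripts of liver and kidney also lay lower in Cre-carrying mice, and the part of RNA from other organs in the difference of these 3 genes was not separated. In WT replicate 3, which held the lowest germline value of Tcea3, Alb was 165 FPKM and the kidney genes described below summed to 519 FPKM. In Δ3102 replicate 3, where Aqp1 was 3.22 FPKM, Alb was low and the kidney genes summed to 374 FPKM. Alb, the albumin gene of hepatocytes, was 126 to 189 FPKM in 5 of the 6 germline libraries and 1.11 FPKM in Δ3102 replicate 3. It was 44.8 FPKM in AG-KO replicate 1, 1.12 FPKM in AG-KO replicate 2, at the floor value of the table in AG-KO replicates 3 and 4, 2.00 FPKM in NG-KO replicate 1 and 41.7 to 55.8 FPKM in the other NG-KO libraries. All Cre-carrying libraries were thus below 5 of the 6 germline libraries. Of the 20 hepatocyte genes, 18 were lower at an unadjusted p under 0.05 and none passed after adjustment, with a median of -2.72. Over all tested genes 6.61% were lower. Without Δ3102 replicate 1 or 2, the count was 11 and 8. The summed FPKM of the list ranged from 19.6 to 686 in the germline class and from 5.65 to 229 in the conditional class. In NG-KO mice alone, 2 of the 20 were lower at an unadjusted p under 0.05 (median -1.81), where 4.7% of all tested genes were lower. In AG-KO mice 16 were (median -3.60), where 8.47% of all tested genes were lower.

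The kidney transcripts had a like distribution but in other libraries. Kap, an androgen-regulated protein of the proximal tubule, was 349 to 491 FPKM in 5 germline libraries, 2.38 FPKM in WT replicate 1, 18.1 to 127 FPKM in AG-KO mice and 1.12, 0.739, 94.6 and 97.7 FPKM in NG-KO mice. Of 10 kidney genes, chosen after their values were seen, 6 were tested and 5 were lower at an unadjusted p under 0.05 (median -2.10). Skeletal muscle genes had a median of -1.86, with 2 of 12 lower, and testis genes a median of -1.55, with none of 10 lower, at an unadjusted p under 0.05. Over all tested genes 6.61% were lower, and the muscle and testis counts are not read as a difference between the classes. WT replicate 3, at 52.9 summed FPKM, was low in muscle transcripts, and WT replicate 1 and Δ3102 replicates 1 and 2 were low in testis transcripts. The libraries that were low thus differed from organ to organ.

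**Figure D2:**
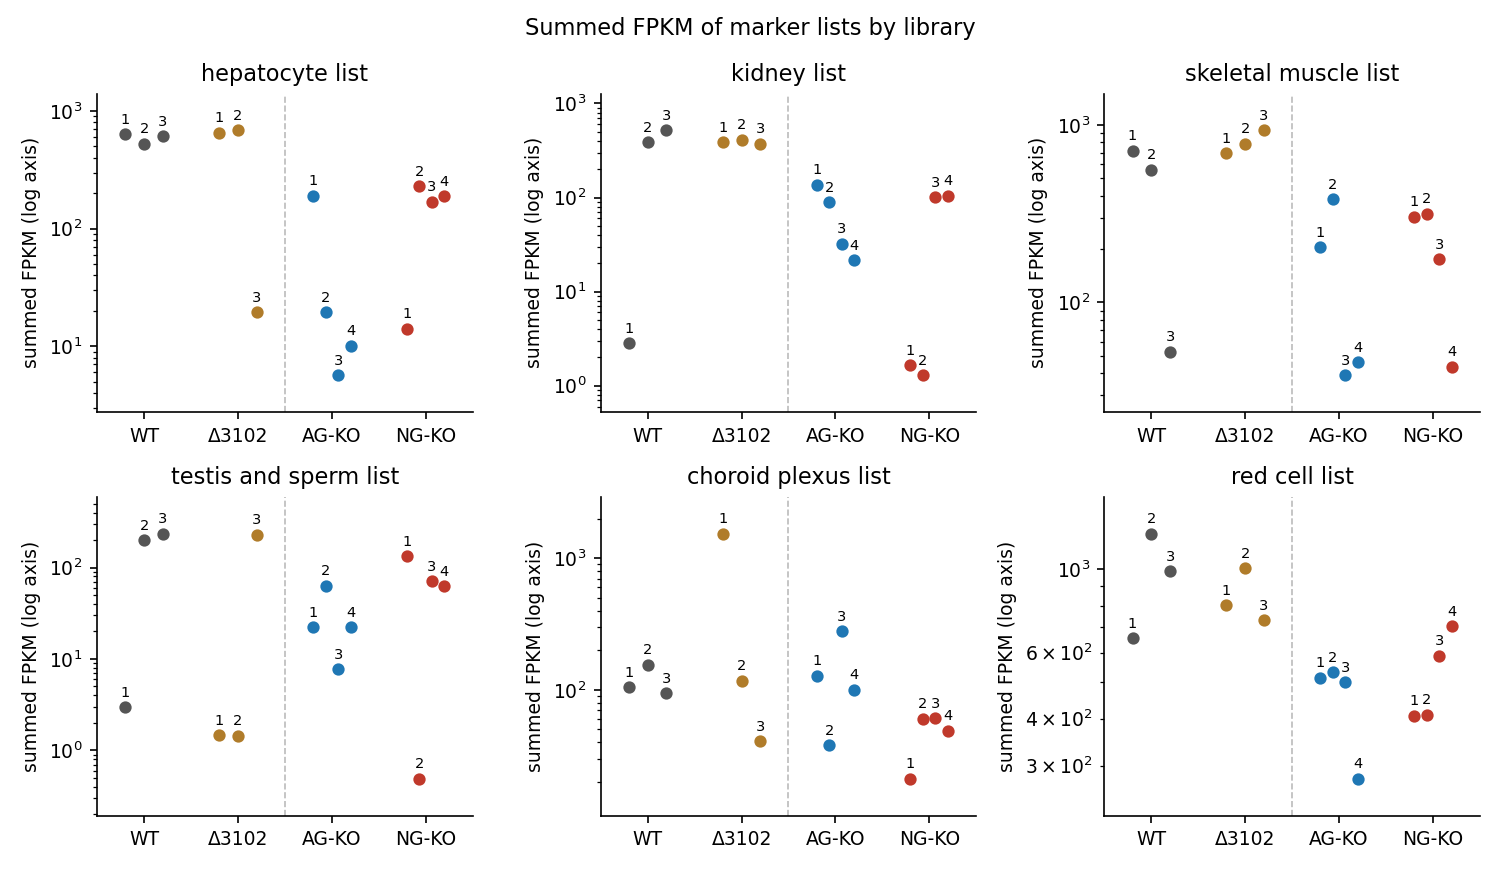
Summed FPKM of 6 marker lists in each library, on log axes, with replicate numbers beside the points and a dashed line between germline and Cre-carrying mice. The hepatocyte list lies between 525.6 and 686 in 5 germline libraries and at 229 or less in all Cre-carrying libraries, while the red cell list lies between 656 and 1243 in germline libraries and between 277 and 706 in Cre-carrying libraries.

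Of the genes named for non-overlapping classes, 5 that did not pass the threshold are known from metabolism outside the brain. Fbp1, a gluconeogenic enzyme, was 4.32 to 8.90 FPKM in germline mice and 0.366 to 2.42 FPKM in Cre-carrying mice (-2.01 ± 0.34, SE, edgeR adjusted p = 0.0519). Pck1, the committed enzyme of gluconeogenesis, was 2.51 to 7.09 FPKM against 0.0688 to 1.59 FPKM (-2.20, edgeR adjusted p = 0.146), and Ass1, of the urea cycle, was 13.1 to 24.1 FPKM against 7.66 to 12.9 FPKM (-0.67, edgeR adjusted p = 0.127). Inmt, a methyltransferase, gave -2.09 and Car3, a muscle and fat carbonic anhydrase, -2.34 (edgeR adjusted p = 0.146 and 0.157).

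With the summed hepatocyte and kidney levels of each library as 2 covariates, a fit chosen after the data were seen, the difference was -1.27 for Serpinf2 (edgeR adjusted p = 0.0512), -1.78 for Aqp1 (0.124) and -1.61 for Tcea3 (0.0849). In the same fit it was 0.90 for Adgrl1 (adjusted p = 0.0512), 0.79 for Sel1l (0.0440) and 0.54 for Myh10 (0.00747). Serpinf2 thus moved from -2.05 to -1.27 on the log2 scale, and Adgrl1 and Sel1l did not become smaller. Both covariates nearly followed class. In the hepatocyte sum, all germline libraries except Δ3102 replicate 3 lay above all Cre-carrying libraries. In the kidney sum, all except WT replicate 1 did. The fit therefore could not separate class from RNA of other organs, and which genes owe their difference to such RNA was not tested.

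Red cell genes lay on the lower side in both lines. Of 6 tested, Hba-a1, Hba-a2, Hbb-bs, Hbb-bt and Alas2 were lower at an unadjusted p under 0.05, with a list median of -1.10. Over all tested genes 6.61% were lower. Hba-a2, an α-globin gene, was 157 to 333 FPKM in germline mice and 43.4 to 153 FPKM in Cre-carrying mice (-1.16, edgeR adjusted p = 0.157). Alas2, the erythroid enzyme of heme synthesis, was 1.45 to 2.63 FPKM against 0.227 to 1.10 FPKM (-1.64, edgeR adjusted p = 0.0969). In both genes the classes did not overlap, and neither passed the threshold. With the 2 organ covariates, 5 of 6 were lower at an unadjusted p under 0.05.

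The 7 called genes that differed between the lines were each set by 1 Cre line. All but Alad lie outside the rule for named genes and were chosen after their values were seen, as was Myh10. In NG-KO mice, 3 genes were higher. Gm13394, a processed pseudogene on chromosome 2 inside Cfap77, was 26.5 to 41.4 FPKM in germline mice, 33.8 to 42.6 FPKM in AG-KO mice and 445, 476, 409 and 494 FPKM in NG-KO mice. Its level in NG-KO mice was 3.77 ± 0.12 higher on the log2 scale (SE, edgeR adjusted p = 2.93e-09), while Cfap77 on the same strand did not exceed 0.844 FPKM in any library. Alad, the second enzyme of heme synthesis, whose gene differs in copy number between inbred mouse strains, was 7.32 to 9.10 FPKM in germline mice, 7.80 to 9.61 FPKM in AG-KO mice and 24.3, 24.7, 22.3 and 28.3 FPKM in NG-KO mice (1.58 ± 0.091, SE, edgeR adjusted p = 2.38e-06). Invs, which encodes the ciliary protein inversin, was 1.18 to 1.49 FPKM, 1.38 to 1.76 FPKM and 3.12, 3.33, 3.22 and 3.25 FPKM in the same order (1.28 ± 0.080, SE, edgeR adjusted p = 2.97e-06). For all 3 genes, the 4 NG-KO mice stood above the other 10.

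A further 3 of the called genes were lower in NG-KO mice. Gm10284, a processed pseudogene inside Galnt7 on the opposite strand, was 12.5 to 18.5 FPKM in germline mice and 0.308 to 0.667 FPKM in NG-KO mice, and in AG-KO mice it was 14 and 15.6 FPKM in replicates 1 and 2 and 4.23 and 3.67 FPKM in replicates 3 and 4. Gapdh-ps15, a processed copy of the glycolytic gene Gapdh that the annotation places on the Y chromosome, was 2.56 to 4.38 FPKM in the other 10 libraries and 0.0669 to 0.122 FPKM in NG-KO mice. All mice were female, and Gapdh itself was 25 to 37.1 FPKM in all libraries, so the reads of this copy are uncertain in origin. Gm26826, a minus-strand noncoding model that overlaps Foxj2, had 0 counts in each NG-KO library and 27 to 82 counts in each of the other 10. Against a floor of 3 counts over the NG-KO group, its level was at least 68.1-fold lower than in germline mice. Whether the counting used strand is not given in the sources used here, and Foxj2 was 6.25 to 7.91 FPKM in all libraries.

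Gm15446, a predicted zinc-finger gene on chromosome 5, was the called gene set by AG-KO mice. It was 3.5, 4.38 and 3.11 FPKM in WT mice, 1.07, 2.50 and 2.22 FPKM in Δ3102 mice, 0.217, 0.280, 0.279 and 0.137 FPKM in AG-KO mice and 2.99, 2.61, 2.13 and 2.00 FPKM in NG-KO mice. AG-KO mice fell by 3.48 on the log2 scale (edgeR adjusted p = 0.000571), with all 4 below the other 10, and NG-KO mice gave -0.12.

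**Figure D3:**
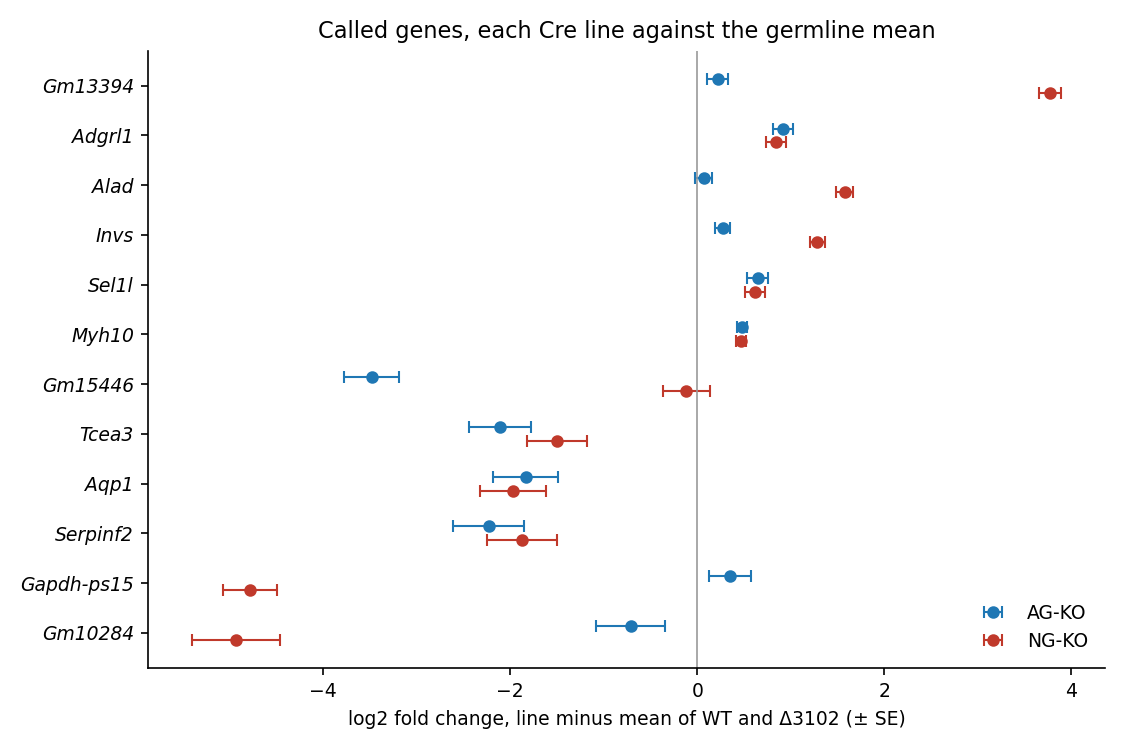
Log2 fold change of each Cre line against the mean of WT and Δ3102 mice for 12 of the 13 called genes, with SE; Gm26826 is left out because it had no count in NG-KO mice. Adgrl1, Sel1l, Myh10, Tcea3, Aqp1 and Serpinf2 have like values in both lines, whereas Gm13394 is 3.77 in NG-KO and 0.22 in AG-KO mice and Gm15446 is -3.48 in AG-KO and -0.12 in NG-KO mice.

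Among genes called in a single line but not between the classes, AG-KO mice had Edil3, a secreted integrin ligand, at 3.56 to 4.52 FPKM against 1.93 to 2.49 FPKM in germline mice (0.99 ± 0.097, SE, edgeR adjusted p = 0.00133). Msi1, an RNA-binding protein of neural stem cells and astrocytes, was 4.48 to 5.63 FPKM in AG-KO mice against 2.81 to 3.24 FPKM in germline mice (0.75 ± 0.091, SE, edgeR adjusted p = 0.00618). Both were higher in all 4 AG-KO mice than in all other mice, and in NG-KO mice they gave -0.23 and 0.17. NG-KO mice had 7 such genes: Eno2, Hdhd3 and Tspan11 were higher and Tmod1, Dubr, Gm2574 and Gm8098 were lower. Hdhd3 starts 0.0102 Mb from Alad and was 6.97 to 11.3 FPKM in NG-KO mice against 2.30 to 3.72 FPKM in germline mice. Tmod1 (5.67 to 7.44 against 8.86 to 12.4 FPKM), Invs, Hdhd3 and Alad all lie on chromosome 4, with 14.2 Mb between the starts of Invs and Alad.

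Eno2, whose promoter names the NSE-Cre transgene, was higher in NG-KO mice. It was 140, 136 and 143 FPKM in WT mice, 148, 143 and 136 FPKM in Δ3102 mice, 159, 171, 141 and 144 FPKM in AG-KO mice and 177, 181, 173 and 184 FPKM in NG-KO mice. NG-KO mice were above all others, by 0.35 ± 0.049 on the log2 scale (SE, edgeR adjusted p = 0.0135), and AG-KO mice overlapped the germline mice. Between the classes the difference was 0.25 ± 0.042 (SE, edgeR adjusted p = 0.0519, exact permutation of 8 against 6 libraries, two-sided p = 0.00666, adjusted over 6 genes 0.0400). The permutation ignores genotype, so its p does not show a difference shared by both lines. In AG-KO mice alone the difference was 0.15 (edgeR adjusted p = 0.202). Gfap, whose promoter names the other transgene, gave -0.02 (edgeR adjusted p = 0.962): it was 97.8 to 121 FPKM in AG-KO mice, 61.1 to 94.6 FPKM in NG-KO mice and 84.9 to 120 FPKM in germline mice.

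The mouse promoters of Eno2 and Gfap are shown because they name the 2 Cre drivers. They are the endogenous windows (RefSeq, GRCm38.p6, 250 bases before the start site, 5′ to 3′ on the gene's strand), and the sequences of the transgenes themselves are not given in the sources used here. The capitals mark a TATA box match.
Eno2 promoter, minus strand, chr6:124769674-124769923: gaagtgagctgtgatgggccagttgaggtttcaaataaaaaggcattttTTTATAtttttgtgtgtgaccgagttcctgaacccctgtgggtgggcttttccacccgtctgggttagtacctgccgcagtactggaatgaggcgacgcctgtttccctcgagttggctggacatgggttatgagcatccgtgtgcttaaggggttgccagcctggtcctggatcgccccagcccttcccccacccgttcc
Gfap promoter, minus strand, chr11:102897201-102897450: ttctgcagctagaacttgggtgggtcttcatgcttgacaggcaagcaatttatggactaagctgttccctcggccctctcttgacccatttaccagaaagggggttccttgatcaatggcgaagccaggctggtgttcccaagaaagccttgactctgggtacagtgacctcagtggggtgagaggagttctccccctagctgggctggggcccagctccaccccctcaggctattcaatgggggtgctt

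The Eno2 window had 1 match to TATAAA, on the opposite strand and toward the upstream end, and the Gfap window had none of the 3 motifs. Of their bases, 54.4% and 55.6% were G or C.

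Genes around Eno2 were examined after called genes of NG-KO mice had been seen on its chromosome, so their counts are a description. Gm26826 starts 1.95 Mb and Tspan11, a tetraspanin at 0.547 to 1.11 FPKM in NG-KO mice and 0.0864 to 0.239 FPKM in all other mice, 3.13 Mb from Eno2. Within 1 Mb of Eno2, 12 of 48 tested genes (25%) differed between NG-KO mice and the germline mean at an unadjusted p under 0.05, and within 5 Mb 27 of 136 (19.9%), against 8.81% of all tested genes. Eno2 itself is not counted, and without Gm26826 and Tspan11 the count within 5 Mb was 25 of 134 (18.7%). In AG-KO mice the shares were 18.8% within 1 Mb and 19.9% within 5 Mb, against 15.8% of all tested genes. Around Gfap, 5 of 54 genes (9.26%) within 1 Mb differed in AG-KO mice. Neighboring genes are not independent of each other, and the site of neither transgene is given in the sources used here.

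**Figure D4:**
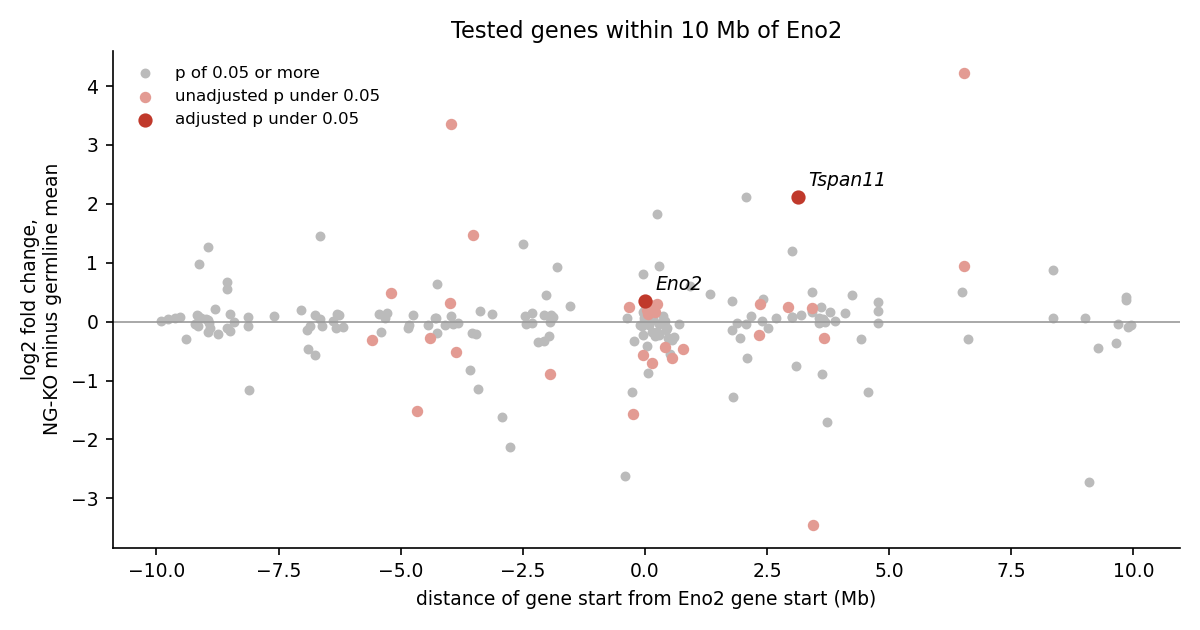
Log2 fold change between NG-KO mice and the germline mean for tested genes within 10 Mb of Eno2, against distance from the Eno2 start; gray points have an unadjusted p of 0.05 or more, and dark points have an adjusted p under 0.05. Eno2 (0.35) and Tspan11 (2.12) are the called genes shown, and Gm26826, with no count in NG-KO mice, is left out.

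Gper1, the targeted gene, was 0.797, 1.15 and 3.05 FPKM in WT mice and 0.0686, 0.145 and 0.0124 FPKM in Δ3102 mice. It was 0.540, 1.38, 0.891 and 1.22 FPKM in AG-KO mice and 1.10, 1.41, 0.975 and 1.11 FPKM in NG-KO mice. The whole-body knockouts were low, and both Cre lines lay in or below the range of the WT mice. The class difference of 1.58 ± 0.43 on the log2 scale (SE, edgeR adjusted p = 0.205, exact permutation, two-sided p = 0.109) therefore carries the Δ3102 mice, and against WT mice alone it was -0.59 ± 0.49 (edgeR adjusted p = 0.668).

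Of the 15 tested genes next to Gper1, Gper1 included, 5 were higher at an unadjusted p under 0.05 and none was lower, with a median of 0.11. Over all tested genes the shares were 5.38% higher and 6.61% lower, and Gper1 itself was among the 5. In AG-KO mice 5 of the 15 were higher, against 7.31% of all tested genes. In NG-KO mice only Gper1 was, against 4.11%. Gpr146, an orphan receptor, was 0.0462, 0.517 and 0.935 FPKM in WT mice, 2.83 to 2.90 FPKM in Δ3102 mice, 2.32 to 3.27 FPKM in AG-KO mice and 1.57 to 2.67 FPKM in NG-KO mice. All 3 engineered genotypes were above WT for this gene, so it did not follow Cre. Micall2, a regulator of junction assembly, was 0.171 to 0.431 FPKM in germline mice, 0.456 to 0.781 FPKM in AG-KO mice and 0.244 to 0.619 FPKM in NG-KO mice (0.80, edgeR adjusted p = 0.288). Elfn1, a synaptic adhesion protein, gave 0.38 and Ints1, of the integrator complex, 0.22. With 1 mean per class in place of 1 per genotype, 3 of the 15 were higher at an unadjusted p under 0.05, as with the 2 organ covariates.

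Genes on a list of likely strain or copy-number differences varied between and within the classes. Of 15 tested, 4 were higher and none was lower between the classes at an unadjusted p under 0.05 (median -0.02), and Alad passed after adjustment. Over all tested genes 5.38% were higher and 6.61% lower. Between Δ3102 and WT mice, 6 of the 15 differed, against 4.45% of all tested genes. Wdfy1, an endosomal protein of Toll-like receptor signaling, was 2.08 to 3.10 FPKM in germline mice, 5.82, 1.46, 5.64 and 6.26 FPKM in AG-KO mice and 4.55, 2.08, 7.25 and 4.88 FPKM in NG-KO mice. In each line, replicate 2 alone was in or below the germline range. Nnt encodes the mitochondrial transhydrogenase, which carries a deletion in the C57BL/6J substrain, and the table holds 2 models of it. The model ENSMUSG00000116207 was at 9.58 FPKM in AG-KO replicate 1 and 7.69 FPKM in AG-KO replicate 4, and at the floor value in the other 12 libraries. In those 2 libraries the model ENSMUSG00000025453 was 0.409 and 0.899 FPKM, against 2.48 to 5.73 FPKM elsewhere, so that mice of the same line differed.

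The remaining genes named by rule had non-overlapping classes but did not pass the threshold. Nrsn1, a neuronal vesicle protein, was 81.7 to 103 FPKM in germline mice and 104 to 125 FPKM in Cre-carrying mice (0.31 ± 0.055, SE, edgeR adjusted p = 0.0756). Grin2d, the GluN2D subunit of NMDA receptors, was 1.28 to 1.94 FPKM against 2.13 to 3.09 FPKM (0.70, edgeR adjusted p = 0.0943). Ache, acetylcholinesterase, was 5.78 to 8.88 FPKM against 9.27 to 13.7 FPKM (0.59, edgeR adjusted p = 0.146). Mvk, mevalonate kinase, gave 0.37, Trnp1, a nuclear regulator of cortical progenitors, 0.34, Slc25a29, a mitochondrial carrier of basic amino acids, 0.40 and Mrpl42, a mitochondrial ribosomal protein, -0.40 (edgeR adjusted p = 0.102, 0.146, 0.146 and 0.146). These 7 genes were chosen for non-overlapping classes, so both lines had to lie on the same side of the germline mice. Their differences in each line were between 0.24 and 0.75 in size.

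The other gene lists were each read against 5.38% of tested genes higher and 6.61% lower at an unadjusted p under 0.05. Interferon response genes were 7 of 15 higher and none lower, with a median of 0.46. The 7 were Usp18, Isg15, Oasl2, Irf7, Irf9, Ifit3 and Ifi27, and none passed after adjustment. Usp18, a protease that removes ISG15, was 0.237 to 0.618 FPKM in germline mice, 0.914, 0.370, 0.971 and 1.2 FPKM in AG-KO mice and 1.36, 1.11, 0.588 and 0.952 FPKM in NG-KO mice (1.38, edgeR adjusted p = 0.157). AG-KO replicate 2 and NG-KO replicate 3 were inside the germline range and NG-KO replicate 1 was highest. With the organ covariates, 1 of the 15 was higher at an unadjusted p under 0.05, and without NG-KO replicate 1, 4 were.

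Immediate early genes, which neurons induce on activity, were 7 of 17 higher and none lower (median 0.33). The median was 0.56 in AG-KO mice and 0.11 in NG-KO mice, where 8 and 1 of the 17 were higher at an unadjusted p under 0.05, against 7.31% and 4.11% of all tested genes. Npas4, an activity-dependent transcription factor, was 1.40 to 2.51 FPKM in germline mice, 5.86, 4.82, 3.57 and 4.80 FPKM in AG-KO mice and 3.43, 2.11, 3.67 and 3.96 FPKM in NG-KO mice (1.02, edgeR adjusted p = 0.0709). Fos was 11.0 and 12.4 FPKM in AG-KO replicates 1 and 2, 4.70 and 3.34 FPKM in replicates 3 and 4, 3.16 to 5.29 FPKM in NG-KO mice and 2.43 to 4.64 FPKM in germline mice. Arc followed the same order, with 71.6, 74.8, 53.3 and 17.3 FPKM in AG-KO mice against 21.6 to 31.9 FPKM in germline mice. The high values of these 2 genes lay in 2 or 3 AG-KO libraries. Without AG-KO replicate 2, or without WT replicate 1, Δ3102 replicate 2 or NG-KO replicate 4, 3 of the 17 were higher, and without Δ3102 replicate 3 or AG-KO replicate 1, 4.

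Dentate granule cell genes lay on the lower side, with all 8 members below 0, 4 at an unadjusted p under 0.05 and a list median of -0.47. Tdo2, tryptophan dioxygenase, was 1.71 to 3.06 FPKM in germline mice, 1.01 to 1.23 FPKM in AG-KO mice and 0.763 to 1.89 FPKM in NG-KO mice (-1.05, edgeR adjusted p = 0.146). C1ql2 (-0.55), Trpc6 (-0.66) and Stxbp6 (-0.47) were the other 3, and Prox1, the defining transcription factor of these cells, gave -0.35. Without WT replicate 2 or Δ3102 replicate 3, 2 of the 8 passed an unadjusted p under 0.05, and with the replicate number as a block 1 did. Against WT mice alone 4 of the 8 were lower (median -0.61), and against Δ3102 mice alone 1 was (median -0.33). Of the 18059 tested genes, 1111 and 737 were lower in these 2 comparisons. Of 10 interneuron genes, Gad1 (0.22), Gad2 (0.25) and Npy (0.18) were higher and Pvalb was lower (-0.78) at an unadjusted p under 0.05, with a median of 0.17. Without WT replicate 3, AG-KO replicate 3 or NG-KO replicate 1, 5 of the 10 were higher. By line, 3 of the 10 were higher in AG-KO and none in NG-KO mice, against 7.31% and 4.11% of all tested genes. Gad1, Gad2 and Npy gave 0.28, 0.44 and 0.36 in AG-KO mice and 0.16, 0.05 and 0.01 in NG-KO mice. Pvalb is also a muscle gene: it was 33.1 FPKM in WT replicate 3, which was low in muscle transcripts, and 92.1 to 110 FPKM in the other germline libraries.

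The astrocyte list gave no member of 12 at an unadjusted p under 0.05 (median -0.02). Of 26 reactive astrocyte genes, Gbp2 and S1pr3 were higher, and Cp, Fbln5, Serping1, C3, Lcn2 and Emp1 were lower (median -0.03). In AG-KO mice 5 were higher and 4 lower, against 7.31% and 8.47% of all tested genes. In NG-KO mice none was higher and 5 were lower, against 4.11% and 4.7%. C3, complement component 3, which the liver also makes, was 4.34 to 9.39 FPKM in 5 germline libraries and 0.425 FPKM in Δ3102 replicate 3, and 0.127 to 3.06 FPKM in Cre-carrying libraries. With the organ covariates, 1 gene of this list was higher and 1 lower, and leaving out 1 library gave 1 to 4 higher. Serpina3n, a marker of reactive astrocytes, was 22.3 to 37.3 FPKM in germline mice, 32.9 to 44.7 FPKM in AG-KO mice and 23.9 to 32.9 FPKM in NG-KO mice (0.15, edgeR adjusted p = 0.659, exact permutation, two-sided p = 0.405). Its differences of 0.43 in AG-KO and -0.12 in NG-KO mice did not differ from each other after adjustment (edgeR adjusted p = 0.171).

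Other cell-type lists showed few members at an unadjusted p under 0.05. Counts higher and lower were 3 and 1 of 13 for neurons (median 0.04), 0 and 1 of 13 for CA fields (0.08), 0 and 0 of 6 for neurogenesis (-0.09), 1 and 0 of 8 for oligodendrocyte precursors (0.11), and 2 and 0 of 12 for microglia (0.13). They were 0 and 2 of 14 for endothelial and mural cells (-0.07), 0 and 1 of 10 for meningeal fibroblasts (-0.06), 0 and 0 of 7 for ependyma (0.19) and 1 and 0 of 13 for neocortex, thalamus and striatum (0.08). Oligodendrocyte and myelin genes had no member past it between the classes (median -0.17), although in NG-KO mice 8 of 12 were lower (median -0.66), against 4.7% of all tested genes, and in AG-KO mice the median was 0.23. Within the germline class, 9 of the 12 were lower in Δ3102 than in WT mice (median -0.71), against 2.27% of all tested genes. Choroid plexus genes were 3 of 8 lower (Ttr, Folr1 and Aqp1, median -0.68). Against WT mice alone 1 was lower (median -0.07), and against Δ3102 mice alone 6 were (median -1.74). The summed FPKM of this list was 1536 in Δ3102 replicate 1 and 40.6 to 155 in the other germline libraries. In Cre-carrying libraries it was 21.0 to 280, with AG-KO replicate 3 the highest.

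Among pathway lists, antigen presentation had 3 of 12 lower, H2-Aa, H2-Eb1 and H2-K1 (median -0.04). Circadian clock genes were 4 of 17 higher, Nr1d1, Ciart, Dbp and Cry2 (median 0.11), and RNA splicing factors 4 of 25 lower (median -0.11). Of the clock genes, 1 was higher in AG-KO and 4 in NG-KO mice, against 7.31% and 4.11% of all tested genes. The p53 targets had 1 of 15 in each direction (median -0.08), glucocorticoid response genes none of 14 (-0.14) and mitochondrially encoded genes none of 13 (0.27). Nuclear long noncoding RNAs had 1 of 9 higher (0.07). Of 5 steroid receptor genes, Gper1 alone was higher (-0.02).

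**Figure D5:**
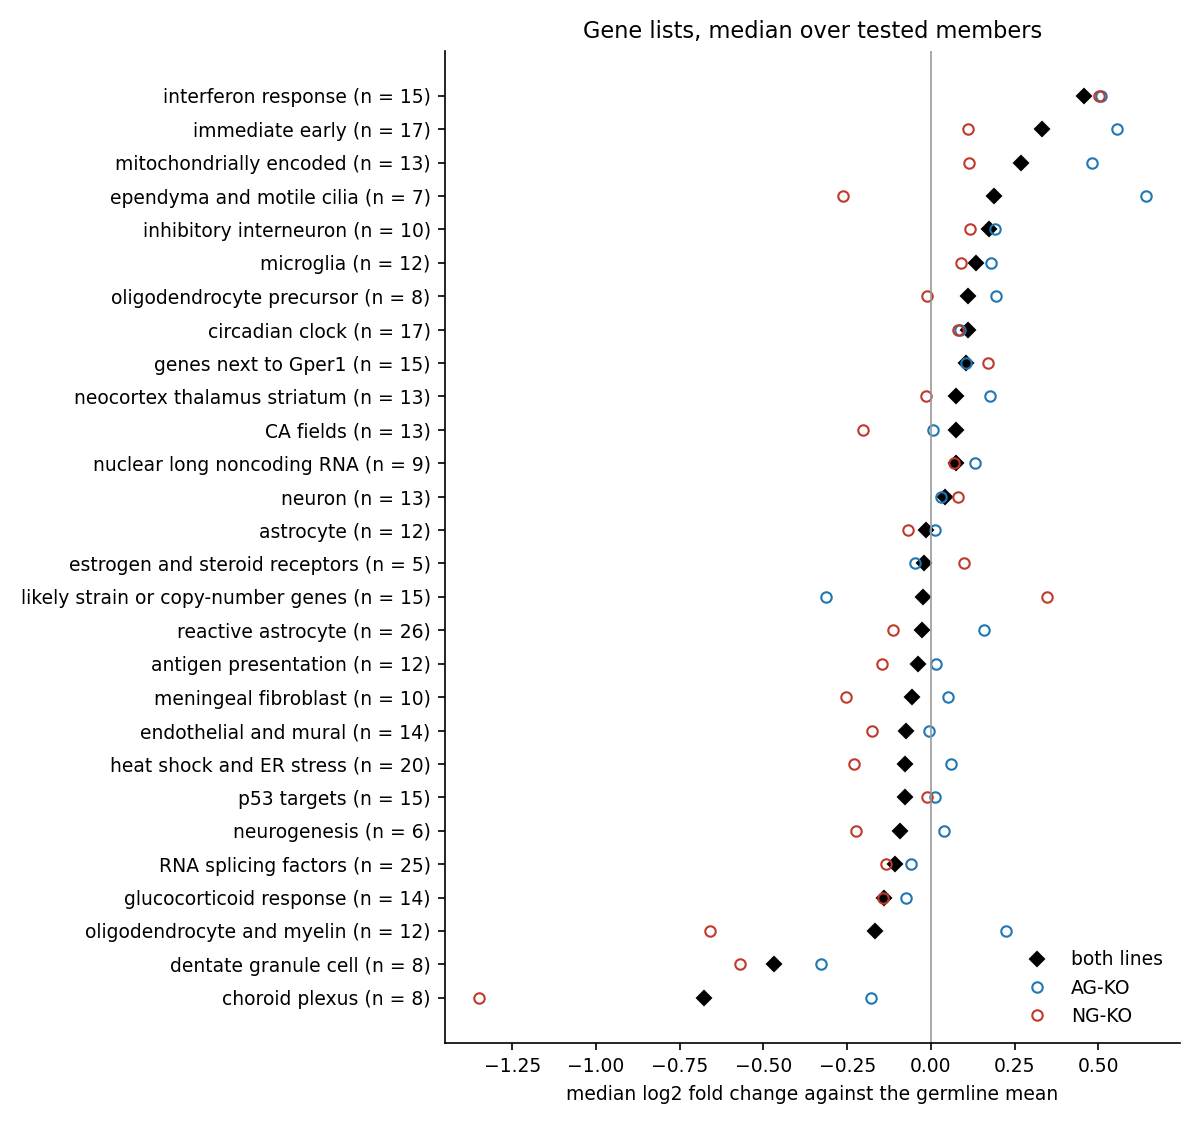
Median log2 fold change over the tested members of each list, n in parentheses, against the germline mean for both lines together (diamonds), AG-KO (blue circles) and NG-KO mice (red circles); lists of liver, kidney, muscle, testis and red cells are left out. Interferon response genes lie at 0.46 with both lines alike, whereas the immediate early and myelin lists lie apart between the lines.

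Pja1, an E3 ubiquitin ligase gene on the X chromosome, did not follow Cre. It was 56.0, 45.9 and 61.4 FPKM in WT mice, 19.9, 14.8 and 19.7 FPKM in Δ3102 mice, 14.7, 22.6, 22.4 and 27.4 FPKM in AG-KO mice and 57.4, 61.9, 57.2 and 25 FPKM in NG-KO mice. Each class held high and low mice, and the class difference was 0.10 ± 0.20 on the log2 scale (SE, edgeR adjusted p = 0.887, exact permutation, two-sided p = 0.964). NG-KO replicate 4 lay at the level of AG-KO mice.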

How the data were processed

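Poly(A) RNA of hippocampus was sequenced from 14 mice as paired reads with molecular identifiers. The authors mapped reads to GRCm38 and deposited, per gene and library, FPKM values from StringTie and read counts. The submitters' processing notes name cutadapt 1.9, HISAT2 2.0.4 and StringTie 1.3.4d, and UMI-tools, DESeq2 and edgeR without versions. The program and strand setting behind the counts are not given in the sources used here. The deposited FPKM table writes 0.0001 in place of 0. All 55450 gene identifiers are in GENCODE vM21.

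From the deposited counts, genes with at least 0.5 FPKM in at least 3 libraries (18059) were fitted with edgeR 4.0.16 (R 4.3.3; TMM, quasi-likelihood, 1 mean per genotype), with Benjamini-Hochberg adjustment. Each SE was derived from the fitted difference and its F statistic. Single genes were also tested by exact two-sided permutation of log2(FPKM + 0.1) over 3003 assignments of 8 against 6 libraries (smallest p 0.000333, scipy 1.17.1), adjusted over 6 genes. These assignments ignore the genotypes inside each class. Alternatives used limma 3.58.1 and DESeq2 1.42.0. The test script was tested on simulated data. No 2 libraries were identical (0 of 91 pairs). Intervals between mice cover the spread between these samples.

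Named genes were, first, called genes with non-overlapping classes, at least 1 FPKM in the higher class and a named locus (no predicted models or pseudogenes). Genes of smallest unadjusted p meeting the other conditions followed, up to 20 in all, then called list members and Gper1, Gfap, Eno2, Pja1, Serpina3n and Alb. The members and lists were chosen with earlier results of these data known. Not every gene that met these rules is reported here.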

Additional observations from a re-analysis of the deposited data

Results flagged for a closer look

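Among 136 sets of 4 to 8 libraries examined, 8 held a library far from the others by Dixon's 95% limit, and chance alone gives about 1 in 20. In the germline class these were Δ3102 replicate 1 for Adgrl1 (42.2 FPKM) and Aqp1 (7.99 FPKM), Δ3102 replicate 3 for Alb (1.11 FPKM) and WT replicate 3 for Gper1 (3.05 FPKM). In NG-KO mice they were replicate 3 for Trnp1 (62.3 FPKM) and replicate 4 for Ache (13.6 FPKM) and Pja1 (25 FPKM). In AG-KO mice it was replicate 1 for Alb (44.8 FPKM).

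The AG-KO and NG-KO differences from the shared germline mean themselves differed, at an edgeR adjusted p under 0.05 for AG-KO minus NG-KO, in 7 called genes. On the log2 scale AG-KO minus NG-KO was -1.51 for Alad, -1.01 for Invs, -3.55 for Gm13394, -3.36 for Gm15446, 4.22 for Gm10284 and 5.14 for Gapdh-ps15. For Gm26826 the fitted value of 8.50 depends on the prior count, because each NG-KO library had 0 counts, and the level was at least 60.0-fold lower than in AG-KO mice against a floor of 3 counts over the group.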

How the results depend on the processing

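Between the classes, 13 genes were called, and 11 to 18 without the filter, at 1 FPKM, with median-ratio size factors, limma on log2(FPKM + 0.1), WT or Δ3102 alone as reference, or Alb or the organ sums as covariates. With WT alone as reference, 10 of the 11 called genes were among the 13, and with Δ3102 alone 9 of 11. None of Adgrl1, Sel1l, Serpinf2, Aqp1 and Tcea3 passed against both references. With Alb as a covariate, 10 of the 11 called genes were among the 13, and with the organ sums 7 of 12. Under the Alb covariate, Sel1l (edgeR adjusted p = 0.0718), Aqp1 (0.262) and Tcea3 (0.164) no longer passed. DESeq2 called 318, limma on log2(FPKM + 1) 32, and a fit with 1 mean per class 6. Leaving out 1 library gave 10 to 27. For AG-KO minus germline (5 calls), DESeq2 gave 533, limma 12 and 14 with pseudocounts of 0.1 and 1, and leaving out 1 library 5 to 201. For NG-KO minus germline (15), DESeq2 gave 183, limma with 1 added 27, and leaving out 1 library 12 to 25. For Δ3102 minus WT (2), DESeq2 gave 30 and leaving out 1 library 2 to 10, and for AG-KO minus NG-KO (20) DESeq2 gave 430 and leaving out 1 library 13 to 297. The cause was not tested.

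With the replicate number as a block, these 5 counts were 8, 2, 5, 1 and 9. The numbers do not pair the mice: over 19 same-numbered pairs the correlation of deviations was -0.284 to 0.308, and 6 pairs exceeded 0.1. Under the block, Sel1l (edgeR, adjusted p = 0.123), Serpinf2 (0.225), Aqp1 (0.153), Tcea3 (0.0602) and Gm26826 (0.183) no longer passed.

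Gfap, at -0.02, became 0.0475 under the block and 0.0263, 0.00794, 0.00539 and 0.0377 without WT replicate 2, AG-KO replicate 2, AG-KO replicate 4 or NG-KO replicate 4. For Gfap conditional minus germline, leaving out 1 library gave -0.0629 to 0.0377. With the organ covariates Alb became 0.53 and Pja1 -0.28. Of 747 recomputed values for named genes, 677 kept direction and side of the threshold, 26 lost it, 37 gained it and 7 turned. Of 414 list counts, 44 moved. Low-level genes rest on few reads, which limits their precision.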
